A study of Coptotermes formosanus x Coptotermes gestroi and Coptotermes formosanus and Coptotermes gestroi with 67 samples.

Results

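Heads of Hybrid G workers, offspring of matings between the subterranean termites Coptotermes formosanus and Coptotermes gestroi, were compared with heads of workers of both parental species at matched molting stages. They were chosen by label: 9 of the 67 samples in the series are Hybrid G heads, and 9 C. formosanus and 9 C. gestroi heads stand against them. Each set of 9 is made up of 3 inter-molt (between molts), 3 pre-molt and 3 post-molt samples. The 3 columns of a cross and stage were identical in every gene, so they were counted as 1 profile. The comparison rests on 3 Hybrid G profiles and 6 parental profiles. Whether a profile holds 1 library or the sum of its replicates was not tested. Hybrid F, the other hybrid of the series, added 3 head profiles to the estimate of spread. The labels give neither which species was the mother of Hybrid G, nor the colony, the age or the number of workers in a sample, and no treatment.

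A hybrid worker carries for most genes a copy from each parental species in the same cells. The level of a transcript in the hybrid can therefore lie between the parental levels, at the level of either parent, or outside both. Workers of lower termites such as Coptotermes molt repeatedly, and a molt replaces the cuticle under control of the steroid hormone 20-hydroxyecdysone, so that many transcripts change strongly around it. The deposited table pairs no gene ID with a name. Genes are therefore given by ID (Cfor numbers and BGI_novel numbers) without a function, and the head label could not be checked against marker genes.

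Totals of the 9 profiles ran from 21647794 counts (inter-molt C. gestroi) to 36803187 counts (pre-molt C. formosanus), with 22963367, 35539659 and 31449568 counts in the inter-molt, pre-molt and post-molt Hybrid G heads. The limit that a count of 0 allows is 3 counts, which is 0.0814 to 0.139 CPM (counts scaled to library size) over the head profiles. Of the 15950 genes in the table, 13080 had enough counts to be tested. Each fold change below is a log2 fold change with stages as blocks, given with its SE, and a gene was called at an adjusted p under 0.05 (edgeR quasi-likelihood test with Benjamini-Hochberg adjustment over 13080 genes). The p-values set a difference against the spread of the head profiles around the fit over the 3 stages, with 6 residual degrees of freedom. A call does not need the difference to recur at each stage. Workers and colonies may vary by other amounts. In whole heads, fewer cells of a type and less RNA per cell cannot be told apart.

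The inter-molt Hybrid G head stood apart from the parental inter-molt heads in genes that rise at a molt. BGI_novel_G001907, among the most abundant genes of Hybrid G heads and singled out after its values were seen, had 16008 CPM in the inter-molt, 6564 CPM in the pre-molt and 36471 CPM in the post-molt Hybrid G head. In C. formosanus the same stages had 1.46, 4217 and 22646 CPM, and in C. gestroi 2.11, 2991 and 32535 CPM. The gene was therefore high at all 3 stages in Hybrid G and near 0 between molts in both parents. Cfor_06437 had 6385 CPM in the inter-molt Hybrid G head against 2.15 and 4.59 CPM in the C. formosanus and C. gestroi heads, and after the molt 30557, 36106 and 32320 CPM. Neither gene was called against either parent over the stages (edgeR adjusted p of 0.15 to 0.22). Results are given below with and without this profile where it matters.

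Genes counted in the heads of only 1 parental species checked the hybrid label. With at least 2 CPM on average in C. formosanus and no count in the 3 C. gestroi heads there were 135 genes, of which 129 had NA in all 3 C. gestroi heads. Hybrid G had counts for 112, 113 and 120 of them between, before and after molts. In the opposite direction 47 genes were counted in C. gestroi only, and Hybrid G had counts for 41, 43 and 39 of them. Every Hybrid G profile thus held between 83% and 91.5% of the genes counted in heads of 1 species only. They are termed private below, by the heads alone. BGI_novel_G001493, counted in C. gestroi heads only, had 0.734 CPM in the inter-molt C. formosanus body. Most of these genes carry BGI_novel numbers (126 of the 135 and 39 of the 47).

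The level of these private genes in Hybrid G lay mostly below that of the parent that has them. Over the 135 genes counted in C. formosanus only, the mean CPM of Hybrid G was 0.436 times that of C. formosanus at the median, with quartiles of 0.259 and 0.605. It was lower in Hybrid G in 126 genes and higher in 9. Over the 47 genes counted in C. gestroi only, the median ratio was 0.399 (quartiles 0.235 and 0.488), and 46 were lower in Hybrid G. No count in any Hybrid G head was found for 4 and 3 of the genes. The ratios are a description over genes. The genes were chosen by their level in that parent, which can lower the ratio. Genes of 1 genome are not replicates of the cross.

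BGI_novel_G003060 was the most abundant of the genes private to C. formosanus. It had 1368, 2793 and 5205 CPM in the inter-molt, pre-molt and post-molt C. formosanus heads and 1919, 1845 and 2973 CPM in those of Hybrid G, and no count in the 3 C. gestroi heads. Hybrid G stood above C. formosanus between molts and below it at the other stages, with no call between them (log2 fold change -0.36 ± 0.33, edgeR adjusted p = 0.51). Against a floor of 3 counts over the C. gestroi group, Hybrid G was at least 60119-fold higher if NA means no reads. BGI_novel_G001611 followed the molt in both crosses, with 0.152, 3196 and 86.2 CPM in C. formosanus and 3.44, 1709 and 59.8 CPM in Hybrid G. The genes private to C. gestroi were led by BGI_novel_G000505, which had 84.0, 64.2 and 110.6 CPM in C. gestroi and 37.6, 24.6 and 37.4 CPM in Hybrid G, with no count in C. formosanus. All 3 Hybrid G values lay below all 3 C. gestroi values (log2 fold change -1.37 ± 0.11, edgeR adjusted p = 0.00048). BGI_novel_G001493 had 0.111, 96.6 and 73.5 CPM in C. gestroi and 0.185, 53.8 and 37.9 CPM in Hybrid G, a difference that was not called (edgeR adjusted p = 0.12).

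The comparison with each parent over all genes asked how much of the difference between the species was present in the hybrid. Hybrid G differed from C. formosanus in 1901 of 13080 genes (14.5%), 1074 higher and 827 lower (8.21% and 6.32%). From C. gestroi it differed in 3541 genes (27.1%), 2174 higher and 1367 lower (16.6% and 10.5%). The species differed from each other in 6835 genes (52.3%), 3176 higher and 3659 lower in C. gestroi (24.3% and 28%). The root mean square difference of log2 CPM was smaller from Hybrid G to C. formosanus than to C. gestroi at each of the 3 stages, at 1.25 against 1.41 between molts, 1.12 against 1.27 before and 1.05 against 1.27 after the molt. Between the species it was 1.84, 1.76 and 1.78. Both parental comparisons share the Hybrid G profiles, and the reference behind the counts is not given in the sources used here, so unequal assignment of reads of the species cannot be told apart from expression.

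These counts moved with single profiles and with the fit. Against C. formosanus 839, 898 and 827 genes were called without the inter-molt, post-molt or pre-molt Hybrid G profile, 1218 and 1118 without post-molt or pre-molt C. formosanus, 1264 with post-molt Hybrid F left out, and against C. gestroi 2126 and 2101 without inter-molt or pre-molt Hybrid G. The 9 profiles of Hybrid G and its parents alone gave 854 and 2317 genes with 4 residual degrees of freedom.

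Genes were then sorted by their calls. Of the 6835 genes that differed between the species, 2269 (33.2%; 17.3% of all genes tested) were called against C. gestroi and not against C. formosanus, and 702 (10.3%; 5.37% of all) against C. formosanus and not against C. gestroi. These are termed like C. formosanus and like C. gestroi. A further 1121 genes (16.4%; 8.57% of all) were called against both parents and lay between them. In 2729 genes (39.9%; 20.9% of all) the species differed and Hybrid G was called against neither. Of the genes tested, 21 (0.161%) were above both parents and 18 (0.138%) below both, and in 8 and 6 of these the species also differed. No contrast was called in 6069 genes (46.4%), and in 151 (1.15%) Hybrid G was called against 1 parent only while the species were not parted. A missing call does not show equal levels: of the genes like C. formosanus, 1979 of 2269 (87.2%) lay on the side of C. gestroi, and of those like C. gestroi 592 of 702 (84.3%) lay on the side of C. formosanus. The genes like C. formosanus outnumbered those like C. gestroi under all 23 alternatives tried.

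**Figure D1:**
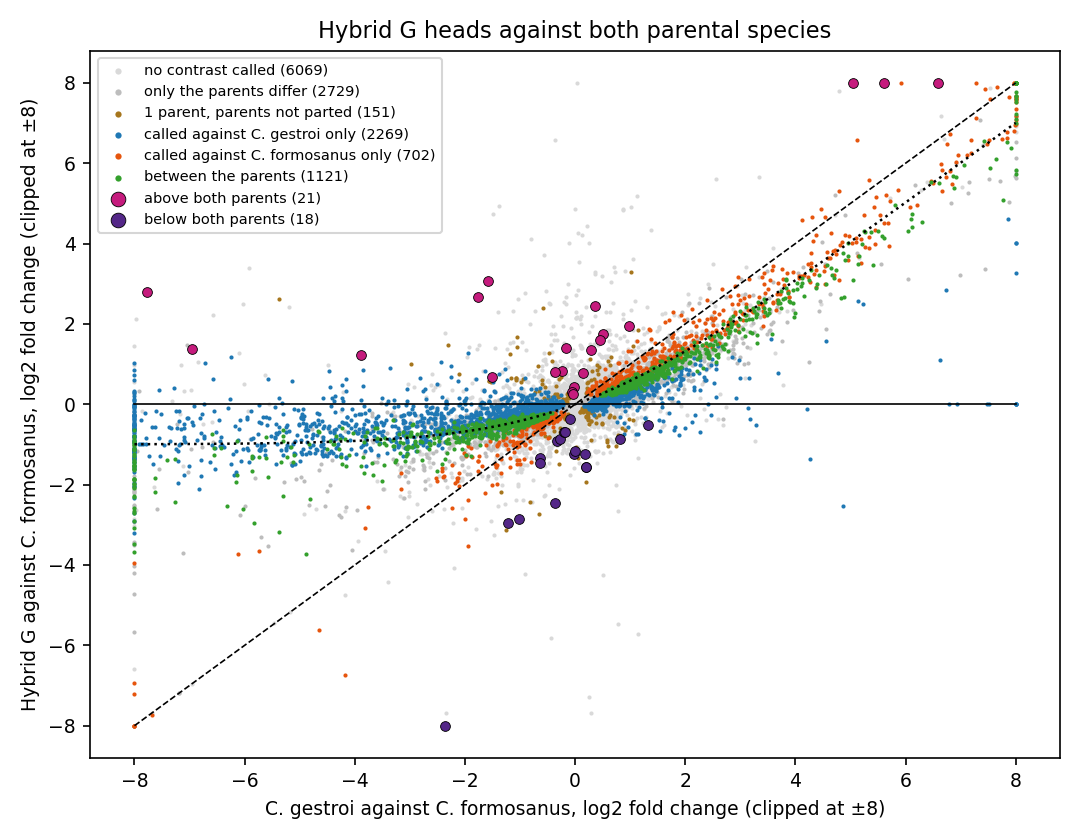
Each point is 1 of 13080 genes: the log2 fold change of C. gestroi against C. formosanus (x) and of Hybrid G against C. formosanus (y), clipped at 8 in both directions and coloured by class. The solid line is the C. formosanus level, the dashed line the C. gestroi level and the dotted line the arithmetic mean of both, along which most genes with a large species difference lie; the 21 genes above and 18 below both parents are drawn larger.

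Counts of genes between the parents were the least stable of the large classes. They were 391, 413 and 379 without inter-molt, post-molt or pre-molt Hybrid G, 741 and 697 without post-molt or pre-molt C. formosanus, 722 with post-molt Hybrid F left out, and 444 with the 9 profiles alone. Genes like C. gestroi were 455, 433 and 392 without inter-molt, post-molt or pre-molt C. formosanus, 419, 443 and 429 without the same Hybrid G profiles, and 386 with the 9 profiles alone, while genes like C. formosanus stayed between 1614 and 2758 when 1 profile was left out.

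The classes differed in which species was the higher one. Among the genes like C. formosanus, C. formosanus was the higher parent in 1527 and C. gestroi in 742. Among the genes like C. gestroi, C. gestroi was the higher parent in 488 and C. formosanus in 214. Genes between the parents were split about evenly, with 575 higher in C. formosanus and 546 higher in C. gestroi. In both of the first classes, then, Hybrid G was more often near the parent with the higher level. BGI_novel numbers made up 33.6% of the genes like C. formosanus, 35.2% of those like C. gestroi, 27.7% of those between and 26.5% of all genes tested. The deposited gene lengths had medians of 3141, 2371 and 3110 in the same order, against 2968 over all genes tested.

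Where in the parental range Hybrid G stood was measured as a position, 0 at the C. formosanus level and 1 at the C. gestroi level, over the 1715 genes called between the species with at least a 4-fold difference. On the log2 CPM scale the median position was 0.346 (quartiles 0.180 and 0.657), and 62.0% of the genes were nearer to C. formosanus. The side depended on which parent was higher. In 1045 genes higher in C. formosanus the median was 0.232, and in 670 genes higher in C. gestroi it was 0.679, so in both sets Hybrid G lay nearer to the higher parent on the log scale. On the linear CPM scale the medians were 0.485 and 0.424, close to the arithmetic mean of the parents at 0.5 and in both sets slightly on the C. formosanus side. On that scale 1246 of the 1715 genes (72.7%) lay in the middle part of the range, between 0.25 and 0.75. At single stages the log-scale median was 0.356 between molts, 0.377 before and 0.333 after the molt. The IDs differed: 567 Cfor genes had a median of 0.474 and 1148 BGI_novel genes one of 0.296. In Hybrid G bodies, which are other profiles, the median over 1782 genes was 0.313. Hybrid F heads, set against the same parental profiles, had a median of 0.380 over the same 1715 genes, with 59.7% nearer to C. formosanus.

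**Figure D2:**
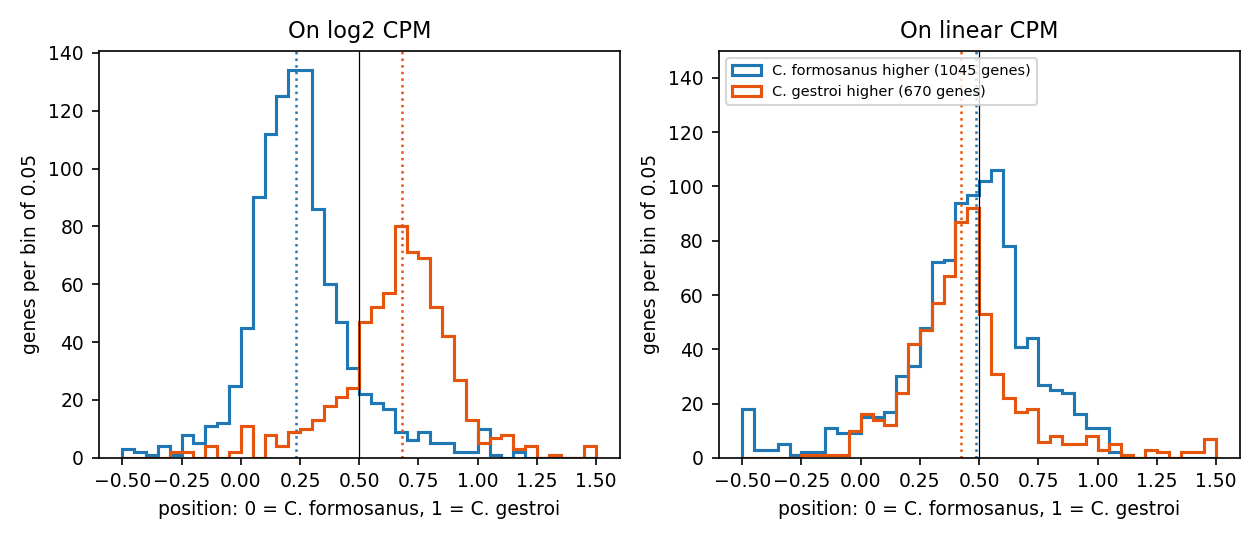
Position of Hybrid G heads between the parental species (0, C. formosanus; 1, C. gestroi) on log2 CPM (left) and linear CPM (right) for genes at least 4-fold apart, split by the higher parent; values beyond the axis are in the outermost bins. Dotted lines are medians: 0.232 and 0.679 on the log scale draw together to 0.485 and 0.424 on the linear scale.

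Against the mean of the parental log2 levels, which is their geometric mean, 560 genes were called (4.28%), 523 higher (4%) and 37 lower (0.283%) in Hybrid G. The species differed in 507 of the 523 genes, by a median log2 fold change of 5.30 in size. Such genes have a geometric mean far under the arithmetic mean, and of the 523 genes 374 lay above the arithmetic mean of the parents as well and 149 below it. The 523 genes were chosen for a high level in Hybrid G, so this split describes them only. All 37 lower genes lay below the arithmetic mean, which their choice fixed, as a geometric mean is never above the arithmetic mean. The count of 560 was 324, 319 and 293 without inter-molt, post-molt or pre-molt Hybrid G, and 292 with the 9 profiles alone. Around the arithmetic mean most genes were close: of genes with a parental mean of at least 1 CPM, 86.0% of 10891 between molts, 84.5% of 11299 before and 90.4% of 11184 after the molt were within 1.5-fold of it in Hybrid G. The species were themselves close in most genes, with a median log2 fold change of 0.572 in size over all genes tested. These shares are therefore high largely by that closeness, and do not show where in the parental range Hybrid G stood.

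The named genes between the parents were chosen for large species differences and for lying between the parents at each stage. They lay at different depths of the parental range. BGI_novel_G000468 had 270.8, 237.0 and 233.1 CPM in C. gestroi between, before and after molts, 140.2, 125.3 and 112.5 CPM in Hybrid G and at most 0.301 CPM in C. formosanus. No values of the 3 crosses overlapped, and Hybrid G was 0.510 times C. gestroi in mean CPM (log2 fold change -0.97 ± 0.18, edgeR adjusted p = 0.0066). BGI_novel_G001574 had 377.2, 1343 and 1405 CPM in C. gestroi and 78.4, 652.9 and 301.9 CPM in Hybrid G, with at most 0.273 CPM in C. formosanus. Hybrid G was lower at each stage (log2 fold change -1.87 ± 0.45, edgeR adjusted p = 0.020), a call lost without inter-molt or post-molt C. gestroi or inter-molt or post-molt Hybrid G (edgeR adjusted p up to 0.073).

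Higher in C. formosanus was Cfor_12498, with 747.4, 96.1 and 53.0 CPM there, 303.7, 44.2 and 41.5 CPM in Hybrid G and no count in C. gestroi. The step down from C. formosanus was -0.94 ± 0.20 on the log2 scale (edgeR adjusted p = 0.032) and lost its call without inter-molt or pre-molt C. formosanus, inter-molt or post-molt Hybrid F or any Hybrid G profile (edgeR adjusted p up to 0.12). Cfor_10408 lay further down the range, at 73.8, 103.9 and 39.5 CPM in Hybrid G against 935.8, 243.7 and 226.0 CPM in C. formosanus and at most 0.111 CPM in C. gestroi. Its mean in Hybrid G was 0.155 times that of C. formosanus (log2 fold change -2.57 ± 0.46, edgeR adjusted p = 0.010; up to 0.053 without inter-molt or post-molt Hybrid G).

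Among genes like C. formosanus, BGI_novel_G003133 had 74.1, 96.8 and 98.9 CPM in C. formosanus, 61.5, 69.6 and 61.0 CPM in Hybrid G and 1.26, 0.310 and 0.407 CPM in C. gestroi. Hybrid G was far above C. gestroi (log2 fold change 6.61 ± 0.41, edgeR adjusted p = 3.7e-05) and below C. formosanus at each stage without a call (-0.50 ± 0.29, edgeR adjusted p = 0.29). BGI_novel_G003060, described above, belongs to the same class. The named genes of this class were chosen to differ from C. gestroi in the same direction at each stage. Lower than C. gestroi were Cfor_03607 and BGI_novel_G000409. Cfor_03607 had 3.92, 29.3 and 3.37 CPM in Hybrid G, 1.76, 29.0 and 6.60 CPM in C. formosanus and 10.8, 103.4 and 10.2 CPM in C. gestroi. Hybrid G was below C. gestroi at each stage (log2 fold change -1.63 ± 0.36, edgeR adjusted p = 0.014; up to 0.061 without pre-molt C. gestroi or post-molt or pre-molt Hybrid G). BGI_novel_G000409 had 8.03, 16.1 and 9.46 CPM in Hybrid G against 41.6, 32.1 and 37.0 CPM in C. gestroi, a call (edgeR adjusted p = 0.047) that was lost without 8 of the 12 head profiles, all but inter-molt and post-molt C. formosanus and inter-molt and pre-molt Hybrid F (up to 0.16).

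Cfor_05466 led the genes like C. gestroi. It had 466.4, 302.1 and 413.1 CPM in C. gestroi, 505.3, 288.9 and 323.7 CPM in Hybrid G and 4.61, 3.17 and 2.68 CPM in C. formosanus. Hybrid G overlapped C. gestroi (log2 fold change -0.09 ± 0.22, edgeR adjusted p = 0.78) and stood far above C. formosanus (6.72 ± 0.28, edgeR adjusted p = 9.0e-06). The heads of Hybrid F had 3.18, 3.22 and 4.57 CPM of it. Its length in the deposited table is 340. BGI_novel_G001590 was low in both, with 7.18, 9.65 and 8.98 CPM in Hybrid G and 6.59, 6.30 and 8.05 CPM in C. gestroi against 25.2, 37.2 and 30.2 CPM in C. formosanus (log2 fold change against C. formosanus -1.84 ± 0.14, edgeR adjusted p = 0.00021). Calls of both genes against C. formosanus held under every alternative tried.

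The other named genes of this class rest on less. Cfor_11740 had 27.5, 127.6 and 109.8 CPM in Hybrid G, 8.22, 215.7 and 199.1 CPM in C. gestroi and no count, no count and 13.7 CPM in C. formosanus, and its call against C. formosanus (edgeR adjusted p = 0.044) was lost without 11 of the 12 profiles, all but post-molt C. formosanus (up to 0.11). Cfor_00116 had 13.5, 16.5 and 31.3 CPM in Hybrid G against 29.5, 130.2 and 217.1 CPM in C. formosanus (edgeR adjusted p = 0.045). It lost the call without 9 profiles, all but inter-molt C. formosanus and inter-molt and post-molt C. gestroi (up to 0.16).

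Genes in which the parents were at least 16-fold apart, with at least 5 CPM in the higher one, were looked at for the reverse case, a hybrid level near that of the lower parent. This selection was made after the values were seen. Of 242 such genes higher in C. formosanus, Hybrid G was within 2-fold of C. formosanus in 128 and under 0.1 of it in 8, and of 115 higher in C. gestroi, within 2-fold in 46 and under 0.1 in 2. Some of these 10 low genes rest mostly on a single parental profile. BGI_novel_G001612 had 0, 312.6 and 0 CPM in C. formosanus between, before and after molts, and BGI_novel_G002083 had 51.1, 0.875 and 0.247 CPM. Cfor_04911, another of the 10, was high in all 3 C. formosanus heads. It had 102.2, 68.8 and 96.5 CPM in C. formosanus between, before and after molts, but 0.370, 0.0670 and 0.145 CPM in Hybrid G, close to the 0.407, 0.0688 and 0.203 CPM of C. gestroi. Hybrid F heads had 70.6, 54.1 and 93.8 CPM of it. The difference from C. formosanus was -8.86 ± 0.36 on the log2 scale (edgeR adjusted p = 9.0e-06), and that from C. gestroi was -0.23 ± 0.58 (edgeR adjusted p = 0.80). Cfor_04911 and Cfor_05466 thus both stood at the C. gestroi level in Hybrid G and near the C. formosanus level in Hybrid F, the first at the low and the second at the high end. BGI_novel_G001046 was low in both hybrids, at 1.93, 1.91 and 1.67 CPM in Hybrid G and 1.69, 1.07 and 1.01 CPM in Hybrid F, against 28.3, 17.4 and 26.9 CPM in C. formosanus and at most 0.0813 CPM in C. gestroi.

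Few genes were called outside both parents. The class needs a call against each parent, and in simulated data 59.5% of genes set 2-fold outside both parents were recovered. Those genes were drawn from genes above a minimum mean CPM, so this share does not cover genes of low level. Of the 21 genes above both parents 16 carry a BGI_novel number (76.2%, against 26.5% of all genes tested), and of the 18 below both 6 do (33.3%). Many were low: the median log2 CPM was 2.41 above both and 2.23 below both, against 3.89 over all genes tested. BGI_novel_G003521, called below both, had no count in any Hybrid G head. Cfor_00002 and Cfor_12905, also below both, had equal values in every head profile, so they may be 1 signal counted under 2 IDs. The calls of Cfor_07303 and Cfor_08164 below both rest on the pre-molt heads alone. There they had 71.5 and 71.8 CPM in Hybrid G, 171.0 and 132.4 in C. formosanus and 163.3 and 263.4 in C. gestroi. At the other stages neither gene passed 0.123 CPM in these crosses. At a 2-fold minimum 13 and 9 genes remained. Without the inter-molt Hybrid G profile 6 genes were above both, and 7 without the pre-molt Hybrid G, 13 without pre-molt C. formosanus, and 12 with post-molt Hybrid F left out. Below both there were 9 and 6 genes without post-molt or pre-molt Hybrid G, 8 without pre-molt C. formosanus, 7 without post-molt C. gestroi, 11 without its pre-molt profile and 9, 9 and 11 without inter-molt, post-molt or pre-molt Hybrid F. The 9 profiles alone gave 9 above and 7 below, and DESeq2 gave 78 and 51. No gene had at least 1 CPM on average in Hybrid G heads without a count in either parent (highest 0.435 CPM), and none was without a count in Hybrid G with at least 1 CPM in both parents.

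The named genes outside both parents were chosen to be outside at each stage. Among them BGI_novel_G002135 stood highest over both parents. It had 137.6, 66.9 and 57.1 CPM in Hybrid G between, before and after molts, 37.0, 8.34 and 5.46 CPM in C. formosanus and 3.96, 3.96 and 3.05 CPM in C. gestroi. Each Hybrid G value was above all 6 parental values. The log2 fold change was 2.66 ± 0.39 against C. formosanus and 4.43 ± 0.43 against C. gestroi (edgeR adjusted p = 0.0047 and 0.00036). Hybrid F heads had 141.8, 58.0 and 42.4 CPM. BGI_novel_G003806 had 69.0, 85.0 and 84.1 CPM in Hybrid G, 34.5, 33.8 and 32.6 CPM in C. formosanus and 2.26, 2.86 and 1.75 CPM in C. gestroi. The Hybrid G values did not overlap those of either parent (log2 fold change 1.23 ± 0.14 and 5.12 ± 0.17, edgeR adjusted p = 0.0014 and 8.6e-06). Hybrid F heads had 23.6, 34.7 and 28.0 CPM of it. Both hybrids are set against the same parental profiles, so their values are given side by side without a count of shared directions.

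Cfor_01364 had 33.2, 17.8 and 9.42 CPM in Hybrid G, 11.7, 7.16 and 4.07 CPM in C. formosanus and 12.3, 11.3 and 4.27 CPM in C. gestroi, falling from inter-molt to post-molt in all of them and higher in Hybrid G than in both parents at each stage (log2 fold change 1.35 ± 0.17 and 1.06 ± 0.17, edgeR adjusted p = 0.0024 and 0.0035). Hybrid F heads had 39.3, 20.0 and 13.3 CPM, above Hybrid G at each stage. BGI_novel_G000005 had 22.1, 21.97 and 32.5 CPM in Hybrid G against 12.6 to 18.9 CPM in the 6 parental heads. Its call, like those of the 3 genes before it, held when any single profile was left out (0.79 ± 0.09 and 0.64 ± 0.09, edgeR adjusted p = 0.0013 and 0.0016). The heads of Hybrid F had 19.5, 19.3 and 23.6 CPM of BGI_novel_G000005. BGI_novel_G000832 and BGI_novel_G000652 were weaker. The first had 27.8, 30.7 and 42.4 CPM in Hybrid G, 14.7, 16.9 and 26.0 CPM in C. formosanus and 10.9, 18.1 and 19.6 CPM in C. gestroi. Its adjusted p of 0.044 against C. formosanus (edgeR) passed 0.05 without 9 of the 12 profiles, all but inter-molt and pre-molt C. gestroi and inter-molt Hybrid F. In Hybrid F it had 37.8, 26.6 and 33.4 CPM. The second had 25.4, 23.0 and 21.6 CPM in Hybrid G, 13.3, 15.99 and 14.1 CPM in C. formosanus and 3.48 to 6.11 CPM in C. gestroi. Its edgeR adjusted p of 0.046 against C. formosanus passed 0.05 with RLE scaling and without 9 profiles, all but pre-molt C. formosanus and inter-molt and pre-molt C. gestroi. In Hybrid F it had 23.4, 21.3 and 24.6 CPM.

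Below both parents, BGI_novel_G003517 had the largest named difference. Hybrid G had 7.07, 1.84 and 1.67 CPM, C. formosanus 32.1, 16.1 and 17.2 CPM and C. gestroi 22.3, 7.60 and 6.22 CPM. At each stage Hybrid G was the lowest (log2 fold change -2.84 ± 0.33 against C. formosanus and -1.82 ± 0.32 against C. gestroi, edgeR adjusted p = 0.0016 and 0.0052). Hybrid F heads had 9.95, 8.63 and 5.65 CPM. BGI_novel_G003518, whose number follows it and which was picked out after its values were seen, was also called below both parents. That call rests on few counts, with 0.259, 0.301 and 0.145 CPM in Hybrid G, near the floor, and 0.528 to 2.67 CPM in the parental heads. Cfor_03330 had 5.92, 5.26 and 5.83 CPM in Hybrid G, 8.10, 7.63 and 8.69 CPM in C. formosanus and 17.8, 19.9 and 23.3 CPM in C. gestroi, with no overlap between crosses. Hybrid F heads, at 22.4, 20.5 and 27.2 CPM, were near C. gestroi. The log2 fold change of Hybrid G was -1.84 ± 0.11 against C. gestroi (edgeR adjusted p = 2.6e-05) and -0.52 ± 0.11 against C. formosanus (edgeR adjusted p = 0.018; up to 0.076 without pre-molt C. formosanus or post-molt or pre-molt Hybrid G).

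Of the remaining named genes below both, Cfor_04199 had 13.8, 3.01 and 4.28 CPM in Hybrid G and 22.9, 5.81 and 7.32 CPM in C. gestroi, the nearer parent (log2 fold change -0.82 ± 0.20, edgeR adjusted p = 0.020; up to 0.086 without post-molt C. gestroi or inter-molt or pre-molt Hybrid G). Hybrid F had 20.4, 4.39 and 4.15 CPM of it. Cfor_00304 had 13.2, 10.6 and 9.06 CPM in Hybrid G and 14.8 to 23.0 CPM in the parental heads (-0.59 ± 0.16 against C. gestroi, edgeR adjusted p = 0.028; up to 0.10 without any C. gestroi or post-molt or pre-molt Hybrid G), with 23.9, 17.5 and 16.4 CPM in Hybrid F. Cfor_08536 rose before the molt in all crosses, to 191.3 CPM in Hybrid G, 386.6 in C. formosanus and 293.2 in C. gestroi, and stood at 2.63 and 6.99 CPM between and after molts in Hybrid G against 3.48 to 9.59 CPM in the parents. Its call against C. gestroi (-0.50 ± 0.15, edgeR adjusted p = 0.040) was lost without 8 of the 12 profiles, all but the post-molt and pre-molt heads of C. formosanus and Hybrid F. The Hybrid F levels were 2.46, 187.9 and 8.39 CPM. BGI_novel_G001457 had 9.85, 4.15 and 6.12 CPM in Hybrid G against 7.60 to 17.7 CPM in the parents, and its call against C. gestroi (-0.58 ± 0.17, edgeR adjusted p = 0.040) was likewise lost without 8 profiles, all but C. formosanus after and before the molt, pre-molt Hybrid F and post-molt Hybrid G. Its Hybrid F levels were 11.4, 7.74 and 6.70 CPM.

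**Figure D3:**
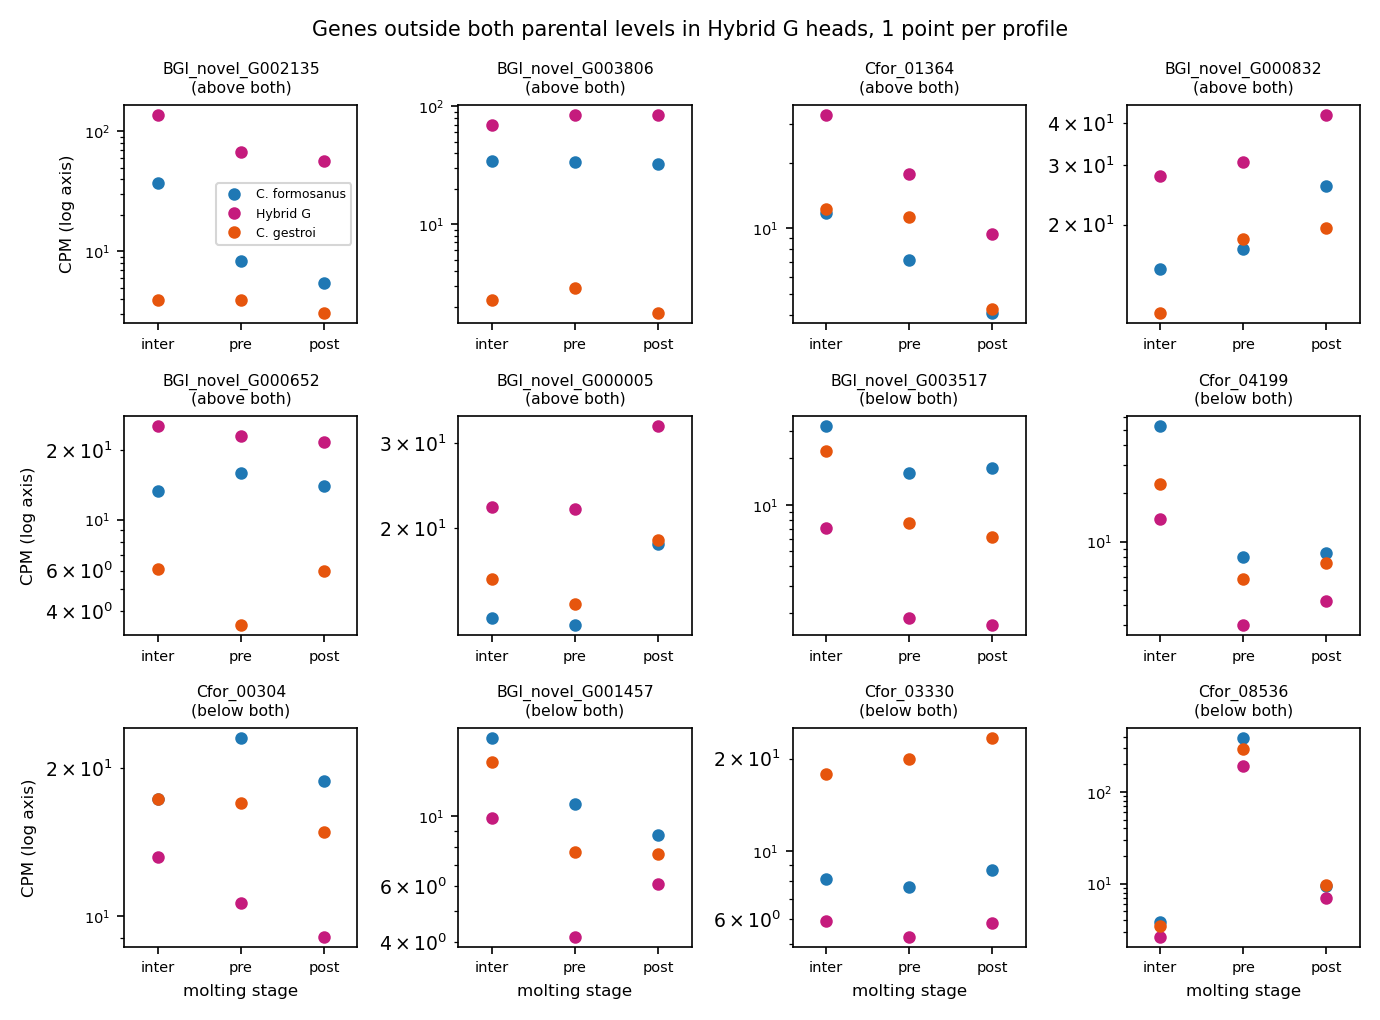
CPM (log axes) of the 12 named genes above or below both parents in the inter-molt, pre-molt and post-molt heads of C. formosanus (blue), Hybrid G (magenta) and C. gestroi (orange), 1 point per profile and no error bars. Hybrid G is the highest point at every stage in the 6 genes above both and the lowest in the 6 genes below both, as the choice of these genes required.

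Bodies of Hybrid G (thorax and abdomen without the gut) share no profile with the heads, though the labels do not say whether they came from other workers. By the same calls 61 of 13256 body genes (0.46%) were above both parents, 10 (0.0754%) below both, 397 (2.99%) between, 2789 (21%) like C. formosanus and 407 (3.07%) like C. gestroi. Some parental body profiles were smaller. Between molts, C. formosanus had 1 column with 10080438 counts, and C. gestroi had 1 with 9861833. Pre-molt C. gestroi had 2 columns with 19497806 counts. Hybrid G bodies had 3 columns per stage and 27041363 to 35612008 counts. Body results, including those at each stage, rest in part on these smaller profiles. All 21 genes above both parents in the head were tested in the body, and 6 of them (28.6%) were above both there, which is 9.84% of the 61 body genes tested in the head. In 10 of the 21 Hybrid G was above both parents at each of the 3 body stages, against 4.99% of all 12762 genes tested in both tissues. Of the 16 genes below both in the head that were tested in the body, 0 were called below both by edgeR, and in 7 Hybrid G was the lowest at each body stage, against 2.9% of all genes. BGI_novel_G002135 had 116.1, 57.5 and 86.9 CPM in Hybrid G bodies between, before and after molts, against 20.4 to 59.0 CPM in C. formosanus and 8.89 to 13.9 CPM in C. gestroi bodies. Cfor_01364 had 101.2, 62.0 and 57.7 CPM there, against 3.0 to 29.1 CPM in the 6 parental bodies. Of the head genes like C. formosanus, 1223 of 2239 tested were in the same class in the body (54.6%), of those like C. gestroi 168 of 682 (24.6%) and of those between 295 of 1117 (26.4%). The body counts depended on single body profiles. Above both there were 31 and 20 genes without post-molt or pre-molt C. formosanus, 31, 29 and 36 without inter-molt, post-molt or pre-molt Hybrid F, and 24, 23 and 21 without the same Hybrid G profiles. Between the parents there were 167 and 173, then 190, 173 and 219, then 157, 86 and 89 genes without the same profiles in the same order. Below both there were 2 and 0, then 3, 3 and 5, then 5, 20 and 3 genes, and 6 and 6 without post-molt or pre-molt C. gestroi. Without post-molt or pre-molt C. formosanus 210 and 179 genes were like C. gestroi, 238 and 250 without the Hybrid G profiles of these stages, and like C. formosanus 1687 without pre-molt Hybrid G.

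Stage by stage, with 1 profile per cross and so no test, Hybrid G was at least 2-fold above both parents in 421 genes between molts (3.22%), 214 before (1.64%) and 105 after the molt (0.803%). At least 2-fold below both were 93 (0.711%), 193 (1.48%) and 156 (1.19%). Most were outside at a single stage: 596 of the 662 genes above both at any stage were so at 1 stage, 54 at 2 and 12 at all 3, and of 402 genes below both 365, 34 and 3. The inter-molt genes above both were mostly genes that rise at a molt. In 294 of the 421 (69.8%) the parents had at least a 4-fold higher level before or after the molt than between molts, against 11% of all genes. The share was 37.4% of the pre-molt and 14.3% of the post-molt genes above both, and 11.8%, 35.8% and 37.8% of the inter-molt, pre-molt and post-molt genes below both. A low parental inter-molt level favours both criteria in the inter-molt genes above both, so their share is raised by the way they were chosen.

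**Figure D4:**
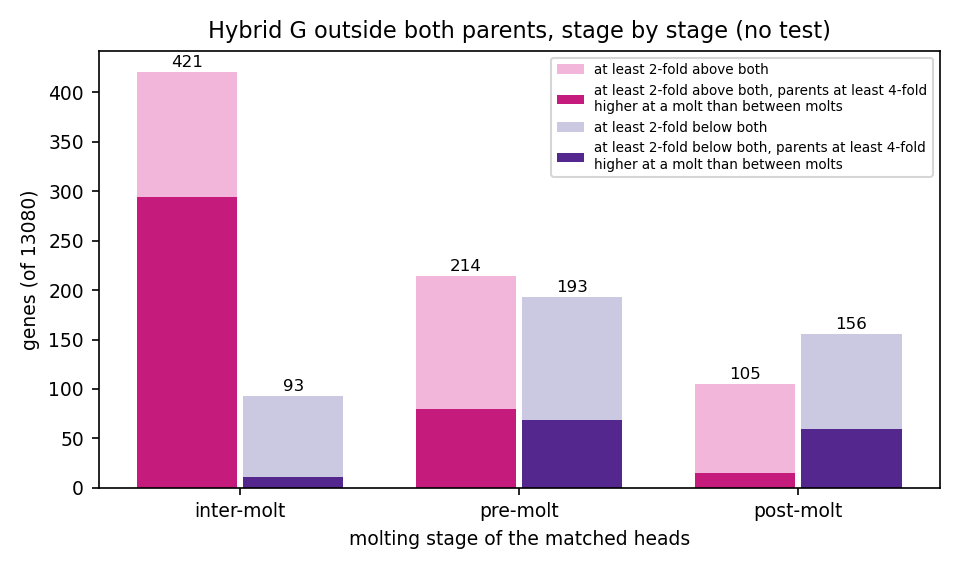
Number of genes, of 13080, at least 2-fold above (magenta) or below (violet) both parental species in Hybrid G heads at each stage, 1 profile per cross and no test. The dark part of a bar counts genes whose parental level was at least 4-fold higher before or after the molt than between molts; it is 294 of the 421 inter-molt genes above both.

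The 1437 genes with such a parental rise had a median inter-molt level in Hybrid G of 10.5% of their highest parental level around the molt (quartiles 1.84% and 20.4%). In Hybrid F this was 7.64% (quartiles 0.814% and 20.7%), with an upper quartile near that of Hybrid G. The parents, at 3.44% in C. formosanus and 4.14% in C. gestroi, are low by the choice of these genes. Whether workers near a molt were among those sampled as inter-molt was not tested.

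Whether the stage response of Hybrid G differed from that of the other 3 crosses was tested with an interaction term (4 residual degrees of freedom). edgeR called 7 genes (0.0535%), with 416 at an unadjusted p under 0.05 (3.18%), and DESeq2 called 190. Cfor_07013 had 72.3, 263.0 and 205.1 CPM in Hybrid G between, before and after molts, and at most 0.154 CPM between molts in the other crosses, where it reached 133.6 to 343.4 CPM at the other stages. BGI_novel_G003165 had 11.2 CPM in the inter-molt Hybrid G head, 2 of the other 3 crosses had no count there, and it had 485.6 CPM before the molt against 601.3 to 658.8 CPM in the others. Cfor_01831 and BGI_novel_G003169 had 14.3 and 13.3 CPM in the inter-molt Hybrid G head and at most 0.282 and 0.0769 CPM in those of the others (edgeR adjusted p = 0.036 for each of the 4 genes). All 4 differ in the same way, by a level between molts in Hybrid G that was near 0 in the other crosses. The count of 7 was 0 without the inter-molt profile of C. formosanus, C. gestroi or Hybrid G or without pre-molt C. formosanus, 2 without post-molt C. formosanus, 3 and 3 without post-molt or pre-molt C. gestroi, 3, 5 and 10 without inter-molt, post-molt or pre-molt Hybrid F, and 6 and 5 without post-molt or pre-molt Hybrid G.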

How the data were processed

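Worker heads of 4 crosses at 3 stages were analysed as 12 profiles. The authors deposited 1 table of expected counts per gene (estimated counts, 27.9% of the head values not whole) and a gene length. The tools listed in the submitters' processing notes are Bowtie2, RSEM and DESeq2, with no role or version; the genome build is not given in the sources. Expected counts can divide reads between similar genes, so near-identical copies are uncertain. NA was read as no reads. Counts were rounded, filtered with filterByExpr by cross (13080 head genes), TMM-scaled and tested with edgeR 4.0.16 (glmQLFit, robust = TRUE; glmQLFTest) in R 4.3.3, with cross and stage as terms and Benjamini-Hochberg adjusted p under 0.05. Each SE was derived from the log2 fold change and its F statistic (size over root of F). CPM values are TMM-scaled; log2 CPM uses a prior count of 2. Floors cover counting error only, while each SE also holds the spread of the profiles around the fit.

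Named genes (mean log2 CPM of at least 3) are the 6 per class outside both parents with the largest smaller fold change that are outside at each stage, 2 per direction between or like a parent, the 2 most abundant private genes per species and the 4 with the smallest stage-response p; exceptions are marked. Named genes between the parents had to lie between them at each stage. Those like a parent had to differ from the other parent in the same direction at each stage. Such agreement over the stages was therefore fixed by the choice. Comparison, classes and gene lists were chosen with earlier results of these data known. The gene lists (ecdysone, juvenile hormone, cuticle, digestion, muscle, fat body, nerve) could not be applied, as no table pairs IDs with names.

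The fits were tested on simulated data before use. Of 200 genes set 2-fold above or below both parents 59.5% were called so, and 87% of 200 set 4-fold outside. Of 200 genes set at the geometric mean of parents 4-fold apart, 46.5% were called between. The changed genes were drawn from those above a minimum mean CPM. All other genes were simulated without a difference between crosses, unlike the data. Alternatives were RLE scaling, no filter, a filter by stage, DESeq2 1.42.0, the 9 profiles alone, leaving out a profile or a stage, leaving out genes with NA, thinning to the smallest total and a 2-fold minimum; the filter by stage, and the position on log2(CPM + 1), were chosen after seeing the data.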

Additional observations from a re-analysis of the deposited data

Results flagged for a closer look

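The stage response of Hybrid G heads differed from that of the other 3 crosses in 7 genes by an interaction term (edgeR quasi-likelihood test, Benjamini-Hochberg adjusted over 13080 genes). The adjusted p of edgeR was 0.036 for each of Cfor_01831, BGI_novel_G003165, BGI_novel_G003169 and Cfor_07013, whose levels are given above. The other 3 genes fall outside the rule for named genes and were chosen after their values were seen. BGI_novel_G003970 had 99.9 CPM in the inter-molt Hybrid G head against 0.395, 0.518 and 0.539 CPM in C. formosanus, C. gestroi and Hybrid F (edgeR adjusted p = 0.041). Cfor_03765 had 101.0 CPM there against 11.8, 11.8 and 10.3 CPM (edgeR adjusted p = 0.041). Cfor_10071 had 6.63 CPM against 1.0, 0.888 and 1.03 CPM (edgeR adjusted p = 0.042). In all 7 genes the inter-molt level of Hybrid G was the highest of the 4 inter-molt heads. That level is a single profile, and without it 0 genes were called by edgeR.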

How the results depend on the processing

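Calls against C. formosanus, calls against C. gestroi, genes above both, below both, between, like C. gestroi and off the geometric mean of the parents were, in this order, 1901, 3541, 21, 18, 1121, 702 and 560. The 9 profiles alone gave 854, 2317, 9, 7, 444, 386 and 292. Without the inter-molt stage they were 781, 1998, 12, 9, 310, 439 and 294, without the pre-molt stage 308, 1236, 3, 2, 100, 202 and 199, and without the post-molt stage 211, 981, 3, 2, 46, 158 and 133, on fewer profiles each. Genes like C. formosanus fell from 2269 to 1125 and 909 without the pre-molt or post-molt stage, and calls between the species from 6835 to 4344 without the latter. DESeq2 gave 3478 calls against C. formosanus, 78 above both, 51 below both, 2053 between, 1143 like C. gestroi, 1270 off the geometric mean and 190 stage responses. A 2-fold minimum left 752 and 1410 calls against the parents, 3321 between the species, 13 above both, 9 below both, 227 between and 1098 like C. formosanus. Without genes holding NA, 346 genes were off the geometric mean. The 7 stage responses became 0 with the 9 profiles alone, 14 with RLE scaling, 15 without a filter, 15 after thinning and 16 without genes holding NA.

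Leaving out 1 profile gave 827 to 2083 calls against C. formosanus, 2101 to 3923 against C. gestroi, 5948 to 6664 between the species, 6 to 22 genes above both, 6 to 17 below both, 379 to 1035 between, 1614 to 2758 like C. formosanus, 392 to 925 like C. gestroi, 293 to 538 off the geometric mean and 0 to 10 stage responses. In bodies it gave 20 to 71 above both, 0 to 20 below both, 86 to 428 between, 1687 to 2857 like C. formosanus and 179 to 549 like C. gestroi. Without 1 stage the median position was 0.346 to 0.365, and the ratios of private genes 0.392 to 0.45 for C. formosanus and 0.374 to 0.418 for C. gestroi. The position was 0.411 with parents at least 2-fold apart, 0.275 at least 16-fold apart, 0.454 on linear CPM and 0.408 on log2(CPM + 1), and the C. gestroi ratio was 0.454 at a mean of at least 10 CPM. For the 31 named genes, 516 of 713 alternative values kept direction and call, 193 lost the call, 1 gained it and 3 changed sign. The 3 belong to BGI_novel_G001611 against C. formosanus, not called at 0.73, which was -0.15 without inter-molt C. formosanus, -0.66 without inter-molt Hybrid G and -0.68 without the inter-molt stage; leaving out 1 profile gave -0.66 to 1.69. Apart from settings that removed samples or genes, the cause was not tested. No paired analysis was possible because the columns of a group are identical, so that replicate numbers carry no separate values. With 1 profile per cross and stage, the spread between workers was not measured.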
